A study of Mus musculus with 30 samples.

Results

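Spheres grown from adult mouse brain were set against cells captured directly from the adult midbrain floor plate. The spheres were 5 libraries named MB and the captures were 6 libraries of postnatal day 70 (P70), together 11 of the 30 libraries of the study. The comparison ran over 11654 gene symbols that occur once in each table and have values at P70, of 13291 symbols listed at P70. Within each library these genes were ranked, and a rank is given as a percentile from 0 (lowest) to 100 (highest).

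The P70 captures were taken by laser microdissection from midbrain floor plate of mice that carried Lmx1aCreERT2 and R26TRAPC. Lmx1aCreERT2 is a recombinase driven by Lmx1a and made inducible by tamoxifen, so it marks cells that express Lmx1a when the drug is given. R26TRAPC is an allele at the R26 locus. Captures of the same genotype at embryonic days 11, 13 and 18 (E11, 4 libraries; E13, 5; E18, 5) and 5 sphere libraries named FB serve as side values. The spheres are labelled only as adult and in vitro, and the labels give no genotype for them. The design text describes ependymal spheres from the aqueduct of the midbrain and neurospheres from the lateral ventricle, and the names MB and FB are not spelled out. The labels do not tie libraries to separate animals or cultures, so p-values measure only the spread between these libraries, which may be technical.

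Ependymal cells line the ventricles and the aqueduct. They leave the cell cycle, build many motile cilia under the control of Foxj1 and Rfx factors, and move cerebrospinal fluid with axonemes powered by dynein arms. Neurosphere culture instead keeps glial progenitors dividing under growth factors, usually epidermal growth factor (EGF) and fibroblast growth factor (FGF), and growth factors of that kind act through the Ras and MAP kinase cascade on Ccnd1, Myc, Etv and Egr genes. The culture medium used here is not given in the labels.

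Sphere values are deposited read counts, given here as counts scaled to library size (CPM). Captured values are normalized by the authors and behave as reads per gene length and library size, and are called units. CPM hold no gene length and units do, so a level in one table cannot be divided by a level in the other, and only ranks were compared. A gene was called where the 5 MB percentiles and the 6 P70 percentiles did not overlap and the group medians lay at least 20 percentile points apart. No test was made between the tables: culture, table, sequencing and processing change together between MB and P70 and cannot be told apart. In captured tissue, fewer cells of a type and less RNA per cell also cannot be told apart.

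The MB libraries held 6327198 to 8422358 counts, and the reads recovered behind the P70 values came to 1075415 to 2480486 per library. The MB libraries resembled each other closely, with Spearman correlations of 0.980 to 0.984 across the shared genes. The P70 captures were more varied, at 0.836 to 0.944, and at 0.871 to 0.944 without replicate 6. Between an MB and a P70 library the correlation was 0.436 to 0.498, and 0.536 to 0.584 once the MB counts were divided by the gene length recovered from the captured values. Of the marker lists for cell types, all 6 ependymal markers (Foxj1, Tmem212, Ccdc153, Rsph1, Pifo and Mia) were listed at P70, with a sum of 11533 to 17005 units. The same 6 genes summed to 26.7 to 37.7 CPM in the MB spheres. Of 5 floor plate markers, Lmx1a, Foxa2 and Ntn1 were listed at P70, and Shh and Corin were listed at earlier ages only. The 3 listed at P70 summed to 26.0 to 59.2 units there. In MB all 5 summed to 51.5 to 57.8 CPM, nearly all of it from Ntn1, at a mean of 54.1 CPM. The 5 neural stem or radial glia markers (Sox2, Nes, Fabp7, Vim and Msi1) summed to 2532 to 2883 CPM in MB and to 882 to 1360 units at P70.

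In all, 2371 genes (20.3% of 11654) ranked higher in the MB spheres and 2134 (18.3%) ranked lower, so 38.7% were called in either direction. The counts were 2450 and 2208 without P70 replicate 6, and 2392 and 2188 without P70 replicate 3, the capture with the lowest correlation with the MB spheres. Over all shared genes the median difference was 1.46 points, and the medians of gene lists below are to be read against that value. CPM hold no correction for length. Across genes, the rank difference correlated with length at a Spearman rho of 0.373, and at 0.057 after the counts were divided by length. Ranks after division by recovered length could be made for 8261 genes, of which 1304 (15.8%) ranked higher in MB and 1259 (15.2%) ranked lower. Of the 1688 higher calls that could be remade in this way 1107 remained, of the 1545 lower calls 1130 remained, and 0 turned over. A gene had to average at least 1 unit at P70 to be compared. A further 1272 symbols (9.84% of 12926) were listed at an earlier age but not at P70, and 331 of these had at least 10 CPM in the MB spheres.

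Promoters are shown first for 2 gene groups in which most compared members were called, the genes of the ciliary axoneme, which ranked lower in MB, and those of mitosis, which ranked higher. Rfx factors bind the X-box, searched here on both strands as the blocks GTNNCC, NNN and GNAAC joined in that order, in windows from 250 bases before to 50 bases after each RefSeq start site. Of 46 promoters of the 42 axonemal genes that ranked lower in MB and matched by symbol, 7 (15.2%) held this motif, against 714 (2.17%) of all 32851 promoters. The promoters shown are those with the motif and the largest rank differences, Pifo, a protein of the ciliary base, at chr3:106001448-106001747 (minus strand), and Tekt4, a tektin of the axoneme, at chr17:25471340-25471639 (plus strand), both of GRCm38.p6. Capitals mark the X-box matches.
Pifo: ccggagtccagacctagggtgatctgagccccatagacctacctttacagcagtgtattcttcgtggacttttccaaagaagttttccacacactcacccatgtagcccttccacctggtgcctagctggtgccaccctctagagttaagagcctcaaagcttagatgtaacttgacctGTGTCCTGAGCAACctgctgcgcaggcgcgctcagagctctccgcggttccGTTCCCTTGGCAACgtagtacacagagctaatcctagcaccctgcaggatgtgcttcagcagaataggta
Tekt4: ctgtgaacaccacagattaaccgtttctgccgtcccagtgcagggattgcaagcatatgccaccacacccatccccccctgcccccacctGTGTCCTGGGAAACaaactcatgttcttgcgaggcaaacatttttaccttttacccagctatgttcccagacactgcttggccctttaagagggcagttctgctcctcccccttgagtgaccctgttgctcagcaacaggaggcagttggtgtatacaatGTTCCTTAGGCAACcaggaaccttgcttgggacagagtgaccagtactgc

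Mitotic genes are often controlled through the cell cycle genes homology region (CHR), searched as TTTGAA, together with CCAAT boxes bound by NF-Y, searched as CCAAT, both on either strand, where matches may overlap. Of 15 promoters of mitosis genes that ranked higher in MB, 13 (86.7%) held a CHR match and 14 (93.3%) a CCAAT match, against 17.9% and 37.4% of all promoters. Among the axonemal promoters the shares were 10.9% and 34.8%. The mitosis promoters shown are Racgap1, a regulator of cytokinesis, at chr15:99651607-99651906 (minus strand), and Cdc20, the activator of the anaphase-promoting complex, at chr4:118437294-118437593 (minus strand), with CHR and CCAAT matches in capitals. A match describes the sequence and does not show that a factor binds there.
Racgap1: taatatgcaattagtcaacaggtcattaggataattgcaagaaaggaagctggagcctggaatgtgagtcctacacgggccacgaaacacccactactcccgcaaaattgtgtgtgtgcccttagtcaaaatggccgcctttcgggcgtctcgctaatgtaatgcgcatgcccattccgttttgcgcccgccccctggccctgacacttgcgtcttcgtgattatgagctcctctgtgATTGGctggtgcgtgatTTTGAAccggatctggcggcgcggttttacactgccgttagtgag
Cdc20: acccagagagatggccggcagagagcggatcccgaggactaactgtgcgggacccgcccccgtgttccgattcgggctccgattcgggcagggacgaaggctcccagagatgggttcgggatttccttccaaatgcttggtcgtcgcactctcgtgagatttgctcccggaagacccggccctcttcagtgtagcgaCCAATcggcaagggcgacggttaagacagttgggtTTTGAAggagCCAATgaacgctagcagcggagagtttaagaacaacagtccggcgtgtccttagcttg

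The likeness of the libraries was then compared within each table, where a test is possible. Each sphere library's mean Spearman correlation with the 6 P70 captures was 0.467, 0.475, 0.465, 0.468 and 0.4658 for MB replicates 1 to 5. For FB replicates 1 to 5 it was 0.455, 0.454, 0.455, 0.450 and 0.446. All 5 MB libraries lay above all 5 FB libraries, and the difference of the means, 0.0165, was small beside the distance of either from the captures. MB averaged 0.468 ± 0.00405 (SD, n = 5) and FB 0.452 ± 0.00388 (SD, n = 5; two-sided exact permutation test, p = 0.00794, the smallest that regrouping these libraries can give). After division by recovered gene length the means were 0.557 and 0.541, again with an exact permutation p of 0.00794.

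The MB spheres ranked genes more like embryonic than adult captures. Over 9712 genes listed at all 4 ages, the mean correlation with the MB libraries was 0.587 ± 0.0032 (SD, n = 4) at E11, 0.589 ± 0.0228 (SD, n = 5) at E13, 0.510 ± 0.0185 (SD, n = 5) at E18 and 0.444 ± 0.0148 (SD, n = 6) at P70. Every P70 library, at 0.423 to 0.460, lay below every library of each earlier age, of which the lowest was an E18 library at 0.486. P70 minus E11 was -0.143, P70 minus E13 was -0.145 and P70 minus E18 was -0.0657 (two-sided exact permutation tests, p = 0.00476, 0.00216 and 0.00216; adjusted over the 3 comparisons by Benjamini-Hochberg 0.00476, 0.00325 and 0.00325). E11 and E13 overlapped. The earlier captures held 2510194 to 3945341 recovered reads per library, and the P70 captures 1075415 to 2480486. Age and read depth thus change together, and the part of each in these differences was not tested. With the FB libraries the mean correlation was 0.423, 0.497, 0.602 and 0.613 at P70, E18, E13 and E11.

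**Figure D1:**
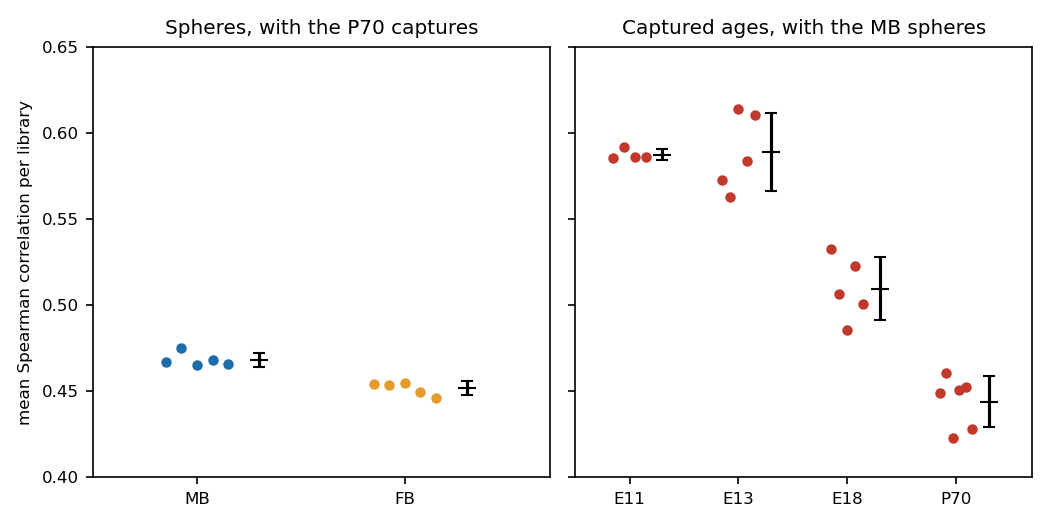
Mean Spearman correlation of each library (y axis, no unit, starting at 0.4) for spheres with the P70 captures (left) and for captured ages with the MB spheres (right); points are libraries, black bars mean and SD. All 5 MB points lie above the 5 FB points by a mean of 0.0165, and the P70 points (0.423 to 0.460) lie below those of E11, E13 and E18.

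The motile cilium was the gene group farthest down in the spheres. Of 23 compared genes for axonemal dyneins and their assembly factors, 22 ranked lower in MB, 0 ranked higher, and the median difference was -57.8 points. Of 31 compared genes for radial spokes, the central pair and other axonemal parts, 28 ranked lower, 0 ranked higher, and the median was -74.6 points. These shares stand beside the 18.3% of all genes that ranked lower. Over length-scaled ranks the counts were 21 of 21 and 25 of 27, beside 15.2% of all genes. The exceptions were Dnaaf2, a dynein assembly factor, and Rsph3a, Rsph3b and Efhc2, which were not called.

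Tmem212, a membrane protein gene of multiciliated cells on chromosome 3 at 27866066 to 27896368 (GRCm38), had 0.144, 0.14, 1.31, 0 and 0 CPM in MB replicates 1 to 5. At P70 it had 3659 units at the lowest, 5621 at the median and 6986 at the highest. It stood at the 5.34 percentile of the MB libraries and at the 99.9 percentile of the captures, -94.6 points apart, and the groups did not overlap. At E18 it had a mean of 2150 ± 533 units (SD, n = 5).

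Dnali1, a light intermediate chain of the inner dynein arm, had 0.144, 0.56, 0.95, 5.06 and 1.31 CPM in MB and 228, 329 and 353 units (lowest, median and highest) at P70, -87.1 points. Dynlrb2, a dynein light chain, had 1.01 to 2.85 CPM and 2674, 4424 and 5126 units, -86.1 points. Zmynd10, a dynein assembly factor, had 0 to 1.18 CPM and 143, 174 and 236 units, -85.3 points. MB replicate 4 was the highest for Dnali1, but in all 3 genes every MB library ranked below every capture.

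Spag6, a central pair protein, had 0, 0.7, 0, 0 and 0 CPM in MB and 92.4, 116 and 131 units at P70, -89.8 points. The symbol Spag6l was found for the spheres only, at a mean of 1.05 CPM in MB. Whether Spag6 names the same gene in spheres and captures was not tested. Tekt4, whose promoter is printed above, had 0.56 to 2.31 CPM and 180, 214 and 229 units, -86.0 points. Lrrc23, a radial spoke protein, had 0.131 to 3.64 CPM and 309, 494 and 621 units, -86.2 points. Rsph1, a radial spoke head protein, was the least depleted of those named, with 4.75 to 11.4 CPM and 1415, 1669 and 1927 units, -77.1 points, and -61.2 points after division by length.

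Of 18 compared regulators of multiciliated fate, 8 ranked lower in MB and 4 ranked higher, beside 18.3% and 20.3% of all genes, so the higher share was near the background. The median was -17.4 points. Those lower include Tekt1, a tektin that is also counted in the list of axonemal parts, at -79.0 points. Foxj1, the master regulator of motile ciliogenesis, on chromosome 11 at 116330704 to 116335399 (GRCm38), had 22.2, 19.2, 28.1, 18.02 and 27.1 CPM in MB. At P70 it had 138, 190 and 471 units, and its rank was -50.8 points lower in MB. Foxj1 thus remained detected in every MB library, at the 39.6 to 49.8 percentile, above the percentile of 5.34 for Tmem212. The side values of Foxj1 were 13.2 ± 1.84 CPM (SD, n = 5) in FB, and 3.19, 9.0, 69.9 and 239 units on average at E11, E13, E18 and P70.

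Rfx2, an X-box binding factor, had 1.18 to 3.78 CPM in MB and 46.7, 63.2 and 88.1 units at P70, -69.5 points. Myb, which acts early in multiciliated differentiation, had 0.433 to 1.11 CPM and 24.7, 31.6 and 47.3 units, -65.0 points. Ccdc78, a protein of the deuterosome, where centrioles are amplified, had 0.158 to 3.80 CPM and 48.5, 63.6 and 138 units, -68.3 points. The 4 members that ranked higher in MB were Gmnn, Sass6, Tfdp1 and Cdkn1a, whose roles lie in replication licensing, centriole duplication and cell cycle control. Plk4 and Cep152, which start centriole duplication in cycling cells too, had no values at P70 and averaged 41.8 and 12.1 CPM in MB. Mcidas, the initiator of the multiciliated programme, had 0 to 0.474 CPM in MB and no values at P70 either, so it was not compared. Ccno and Gmnc of the same list were not called. Among the other Rfx factors of the list, Rfx1 ranked lower by -45.8 points. Rfx3 and Rfx4 were not called, at -13.9 and 14.4 points, with means of 32.1 and 364 CPM in MB.

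Of 38 compared ependymal markers 22 ranked lower, 2 (Ank3 and Ak4) ranked higher and 14 were not called, beside 18.3% lower and 20.3% higher of all genes, with a median of -50.2 points. With length scaling 16 of 25 ranked lower and 0 higher. The genes not called included Vim, Gja1, Aqp4 and S100b, which ependyma shares with astrocytes and radial glia. Ccdc153, a ciliary coiled-coil protein, had 0.237 to 1.11 CPM in MB and 1452, 1679 and 2804 units at P70, -90.5 points. Mia, a small secreted protein, had 1.26 to 2.23 CPM and 3283, 4613 and 6245 units, -85.5 points. Not every ciliary gene was near 0 in the spheres: Mns1, a protein inside the axoneme, averaged 18.05 CPM and Rsph9, of the radial spoke head, 11.8 CPM, although both ranked lower.

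The 10 genes with the most negative rank differences by the naming rule were Efcab10, Ppp1r32, Dmkn, Odf3b, Resp18, Sntn, Crygn, Cck, Riiad1 and Ccdc33. Sntn, sentan of the ciliary tip, had 0 counts in all 5 MB libraries and 84.9, 167 and 302 units at P70. Odf3b, an outer dense fibre protein gene, had 0 to 0.56 CPM and 960, 1410 and 1741 units, -94.5 points. Efcab10 had a count in MB replicate 5 only, at 0.393 CPM, against 400, 885 and 1072 units, -96.8 points. Cck, a neuropeptide that dopamine neurons of the midbrain also make, had 0 counts in all MB libraries and 43.1, 167 and 290 units. Resp18, a protein of endocrine and neuronal secretory vesicles, had 0 to 1.40 CPM and 415, 775 and 980 units, -92.8 points.

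**Figure D2:**
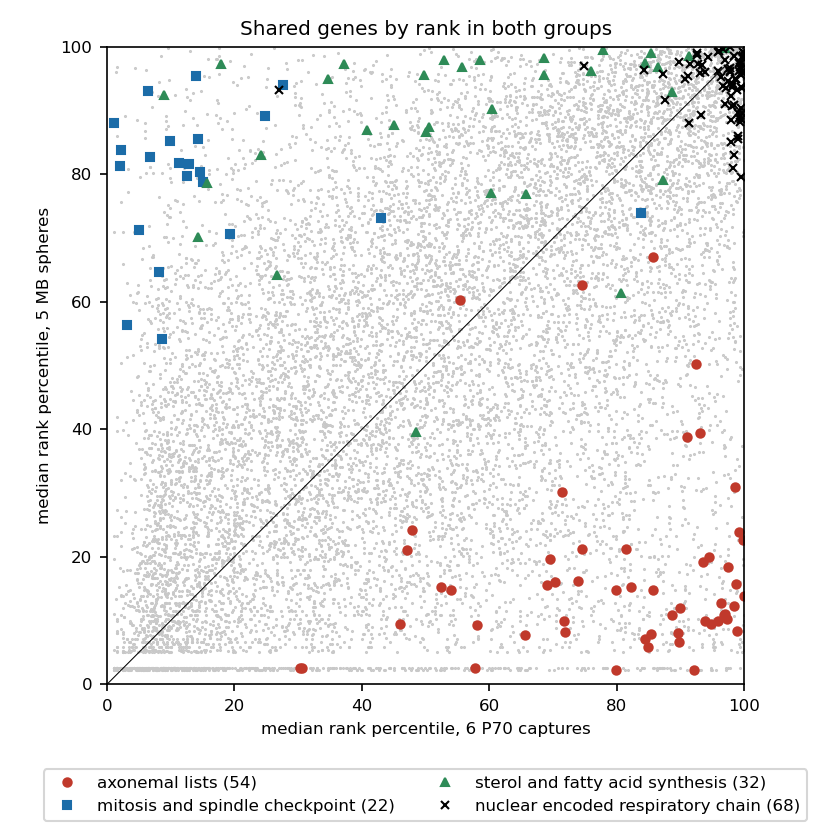
Median rank percentile of each of the 11654 shared genes in the 6 P70 captures (x axis) and the 5 MB spheres (y axis), with gene lists coloured and the line of equal rank. Axonemal genes lie mostly at the lower right, 21 of 22 mitosis genes were called on the upper left, and respiratory chain genes stay at the upper right in both.

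Several genes of floor plate identity ranked lower in the spheres. Of 16 compared genes 9 ranked lower and 2 ranked higher, beside 18.3% and 20.3% of all genes, with a median of -29.9 points. With length scaling 5 and 1 of 10 did. Among those lower were Lmx1a, Foxa1, Foxa2, Otx2, En1, Msx1, Slit2 and Nr2f1. Lmx1a, which specifies midbrain floor plate and drives the recombinase of the captures, had 0, 0.14, 0, 0.158 and 0.786 CPM in MB. At P70 it had 0.901, 5.32 and 7.12 units, -25.4 points, after means of 70.6, 60.3 and 22.6 units at E11, E13 and E18. The lowest P70 library was close to the MB ranks, at the 11.3 percentile against 9.95 for the highest MB library.

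Foxa2, a pioneer factor of floor plate and dopamine neurons, had 0 to 0.867 CPM in MB and 8.31, 14.6 and 21.1 units at P70, -50.8 points. Foxa1, its paralogue, had 0 to 0.722 CPM and 11.9, 30.7 and 41.8 units, -69.9 points. In FB the means of Foxa2 and Foxa1 were 0.0237 and 0 CPM.

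Spon1, F-spondin, an adhesion protein secreted by the floor plate, went the other way. It had 448, 433, 473, 489 and 549 CPM in MB and 0.195, 2.46 and 4.04 units at P70, 82.2 points higher in MB. Its captured mean had been 122 ± 30.6 units (SD, n = 4) at E11, 183 ± 43.4 (n = 5) at E13 and 48.2 ± 12.3 (n = 5) at E18. In FB it averaged 91.7 ± 8.95 CPM (SD, n = 5) beside 478 ± 45.0 in MB. Wnt5a was the other gene higher in MB, and Ntn1, netrin 1, was not called at 50.3 to 56.8 CPM and 14.3, 23.4 and 34.3 units.

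Of the factors named in the series title, Sox9, Nfia, Nfib and Nfix stood high in the spheres and Nfic stood lower, at the 44.7 percentile. Sox9, an HMG box factor of glial progenitors on chromosome 11 at 112782224 to 112787760 (GRCm38), had 209, 186, 212, 166 and 201 CPM in MB and 293, 422 and 578 units at P70. It stood at the 92.5 percentile in MB and 98.0 in the captures, -5.44 points. After division by recovered length the difference was -16.2 points, and Sox9 was not called in either ranking. Nfia and Nfix, nuclear factor I proteins of gliogenesis, differed by 4.92 and 0.789 points and were not called. Nfia had 251 to 361 CPM and 51.9, 94.4 and 129 units, and Nfix had 100 to 142 CPM and 39.6, 62.8 and 76.0 units.

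Nfib had 224, 221, 211, 217 and 216 CPM in MB and 9.48, 15.5 and 22.1 units at P70, and ranked 34.1 points higher in MB. Nfib is a long gene, and when counts were divided by the length of its annotated exons the difference was 12.4 points and the call was lost. Nfic had 18.6 to 22.97 CPM and 13.7, 22.2 and 39.1 units, and ranked lower by -24.7 points, and by -30.2 with annotated exon length. All 5 factors were thus transcribed in every MB library, and only Nfic was called on both scales.

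Most proliferation genes that could be compared ranked higher in the spheres. Of 22 compared genes of mitosis and the spindle checkpoint, 21 ranked higher in MB and 0 lower, with a median of 66.8 points, beside 20.3% of all genes. Over length-scaled ranks 19 of 20 ranked higher, beside 15.8%. The remaining 34 genes of this list had no values at P70, and in MB they had 15.0 to 342 CPM with a median of 71.4, so that all 34 were above 10 CPM. Among DNA replication genes 26 of 39 ranked higher and 2 (Gins4 and Rpa3) lower, with a median of 39.7 points, and 9 more had no values at P70. After division by recovered length 19 of 28 ranked higher and 0 lower, and Gins4 was not called. The 26 included Pcna and all 6 subunits of the Mcm2 to Mcm7 helicase, of which Mcm4 lost its call with recovered length, at 15.3 points.

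Top2a, the topoisomerase that untangles replicated chromosomes, on chromosome 11 at 98992943 to 99024189 (GRCm38), had 315, 331, 339, 377 and 351 CPM in MB. It was listed at 120 ± 16.9 units (SD, n = 4) at E11, 24.9 ± 6.83 (n = 5) at E13 and 4.63 ± 1.40 (n = 5) at E18, and had no values at P70. Ccnb1, cyclin B1, had 267 to 293 CPM in MB and means of 181, 50.3 and 6.83 units at E11, E13 and E18. The means of both genes were lower at each later captured age, and both were present in all 5 sphere libraries.

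Cdc20 had 263, 288, 223, 279 and 287 CPM in MB and 0.384, 2.25 and 7.37 units at P70, 81.5 points higher in MB. Mcm3 had 212, 211, 150, 211 and 196 CPM and 0.216, 0.641 and 2.54 units, 85.9 points. Mcm5 had 134 to 163 CPM and 0.179, 0.777 and 3.23 units, 82.0 points. Cenpa, the centromeric histone, had 85.0 to 106 CPM and had 0, 0 and 11.5 units, 79.3 points. Values at P70 of these genes were near the listing limit of 1 unit, and P70 replicate 3 held the highest value of Cenpa. An alternative added after seeing the data kept genes that average at least 1 unit without their highest capture. There 93.3% of the mitosis genes and 63.9% of the replication genes ranked higher, beside 2348 of all 11122 genes.

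**Figure D3:**
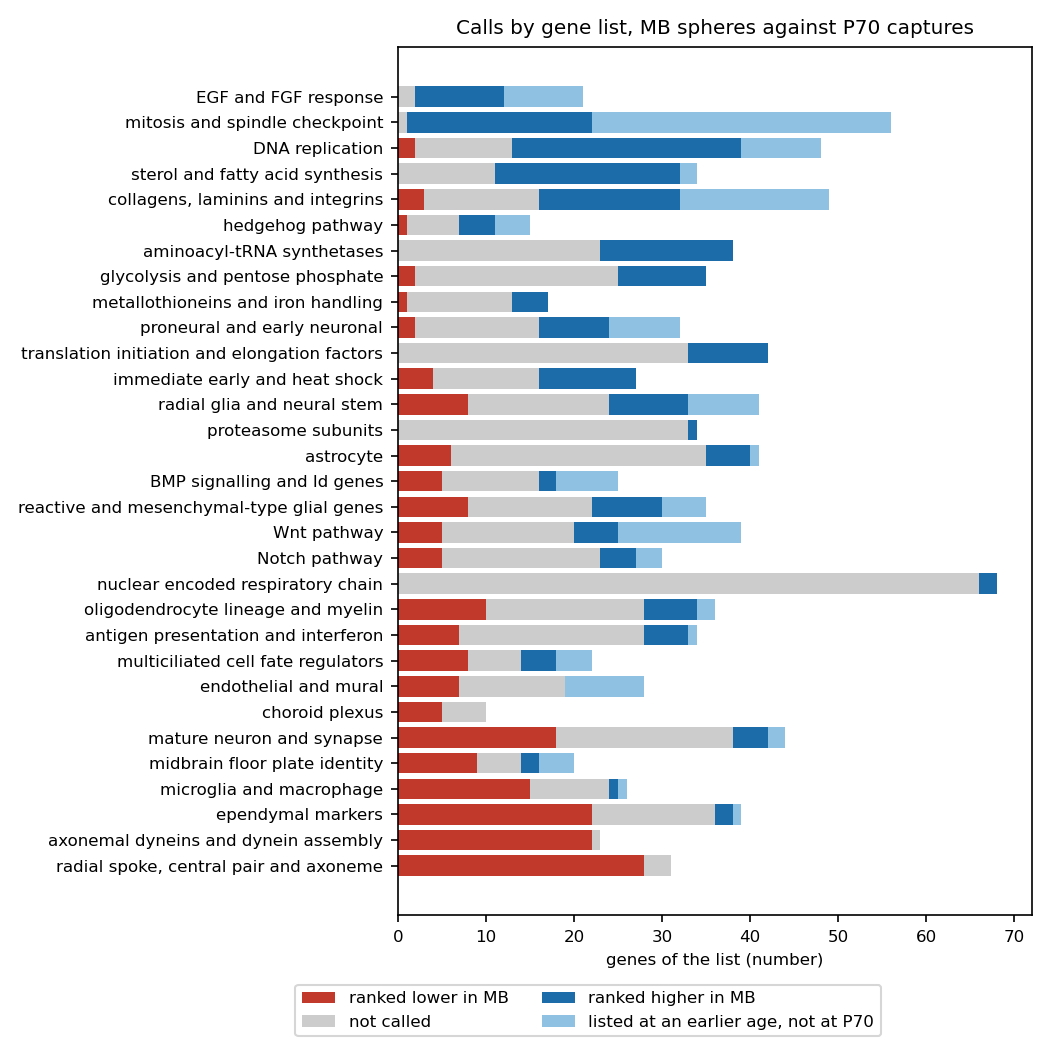
Number of genes (x axis) of each list with 10 or more compared genes that ranked lower in MB, were not called, ranked higher in MB, or were listed at an earlier age and not at P70. The bar for mitosis holds 21 higher and 34 not listed at P70, and the bars of the axonemal lists hold 22 and 28 lower.

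Most compared genes that answer EGF and FGF ranked higher in the spheres. Of 12 compared, 10 ranked higher and 0 lower, beside 20.3% and 18.3% of all genes, and 9 more were listed at earlier ages only. The median was 71.4 points. Over length-scaled ranks 7 of 10 ranked higher, beside 15.8%. Ccnd1, cyclin D1, which carries growth factor signals to the cell cycle, had 2091, 2041, 2044, 1978 and 2114 CPM in MB. It had 0.763, 2.85 and 3.59 units at P70 and a mean of 44.0 units at E11, and its rank was 82.3 points higher in MB. Etv5, an ETS factor induced by FGF, had 651, 581, 784, 686 and 770 CPM and 0.803, 3.399 and 4.16 units, 76.4 points. Myc had 179 to 226 CPM and 0.401, 1.38 and 5.52 units, 83.7 points.

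Dusp6, a phosphatase that damps ERK, had 718 to 781 CPM in MB and no values at P70. Its means were 21.1, 11.97 and 4.53 units at E11, E13 and E18. Spry4, Etv4 and Spry1, feedback inhibitors and an effector of the same cascade, had 94.0 to 136, 69.7 to 96.4 and 41.9 to 58.4 CPM and likewise no values at P70. Other members without values at P70 were low in MB. Il17rd and Mycn averaged 3.77 and 1.58 CPM, and Fosl1, Lif and Areg, not found in the captures at any age, 0.863, 1.04 and 1.86 CPM. Many growth factor response genes, though not all, were thus high in the same libraries as mitotic genes.

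Immediate early genes, which are switched on within minutes of stimulation or tissue handling, were mixed with heat shock genes in 1 list. Of 27 compared, 11 ranked higher in MB and 4 (Jund, Atf3, Klf2 and Hspb1) lower, with a median of 4.6 points, beside 20.3% and 18.3% of all genes. Egr1 had 944, 812, 902, 776 and 1001 CPM in MB and 0.698, 2.26 and 12.4 units at P70, 86.3 points. Fos had 409 to 481 CPM and 1.78, 2.58 and 3.73 units, 81.0 points. Junb had 65.7 to 83.7 CPM and 0, 1.75 and 11.0 units, 64.8 points. How far handling of spheres or of captured tissue contributed was not tested.

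Synthesis of sterols and fatty acids was the metabolic group with the most calls. Of 32 genes compared, 21 ranked higher in MB and 0 lower, beside 20.3% and 18.3% of all genes, with a median of 33.3 points. Length-scaled, 17 of 29 ranked higher, beside 15.8%. They include Hmgcs1, Fdps, Fdft1, Lss and Cyp51 of the cholesterol pathway and Fasn, Scd1 and Acly of fatty acid synthesis. Idi1, an isomerase of the mevalonate pathway, had 354, 345, 396, 431 and 391 CPM in MB and 2.08, 2.58 and 4.46 units at P70, 79.3 points. Dhcr7, which makes the last step to cholesterol, had 227 to 284 CPM and 4.31, 6.46 and 13.7 units, 60.2 points. Elovl6, a fatty acid elongase, had 186 to 224 CPM and 0.225, 1.30 and 2.98 units, 83.5 points.

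Other housekeeping lists are to be read beside the 20.3% of all genes that ranked higher and the 18.3% that ranked lower. Of 38 aminoacyl-tRNA synthetase genes 15 ranked higher and 0 lower (median 14.5 points), with Iars, the isoleucine enzyme, at 82.0 to 126 CPM and 0.287, 4.64 and 6.11 units, 54.0 points. Of 42 translation factors 9 ranked higher and 0 lower (median 5.7 points), a share near that of all genes, with the largest difference in Eif2s3x at 69.9 points. Of 34 proteasome genes 1 ranked higher (Psmd11, 35.1 points) and of 68 nuclear genes of the respiratory chain 2 did (Cycs, 66.4 points, and Ndufs1, 22.2 points), with 0 lower in both. The proteasome and respiratory chain lists sit near the top of the ranking in both groups, where a difference of 20 points is hard to reach. Of 35 glycolysis and pentose phosphate genes 10 ranked higher and 2 (Pygl and Eno2) lower. Pygm, a glycogen phosphorylase, had 82.5 to 119 CPM in MB and 2.77, 4.40 and 6.36 units at P70, beside 7.50 ± 0.838 CPM (SD, n = 5) in FB. Of 17 metallothionein and iron handling genes 4 ranked higher and 1 lower. Among the 4 was Tfrc, the transferrin receptor, at 131 to 186 CPM and 2.54, 4.99 and 6.36 units, 59.3 points.

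**Figure D4:**
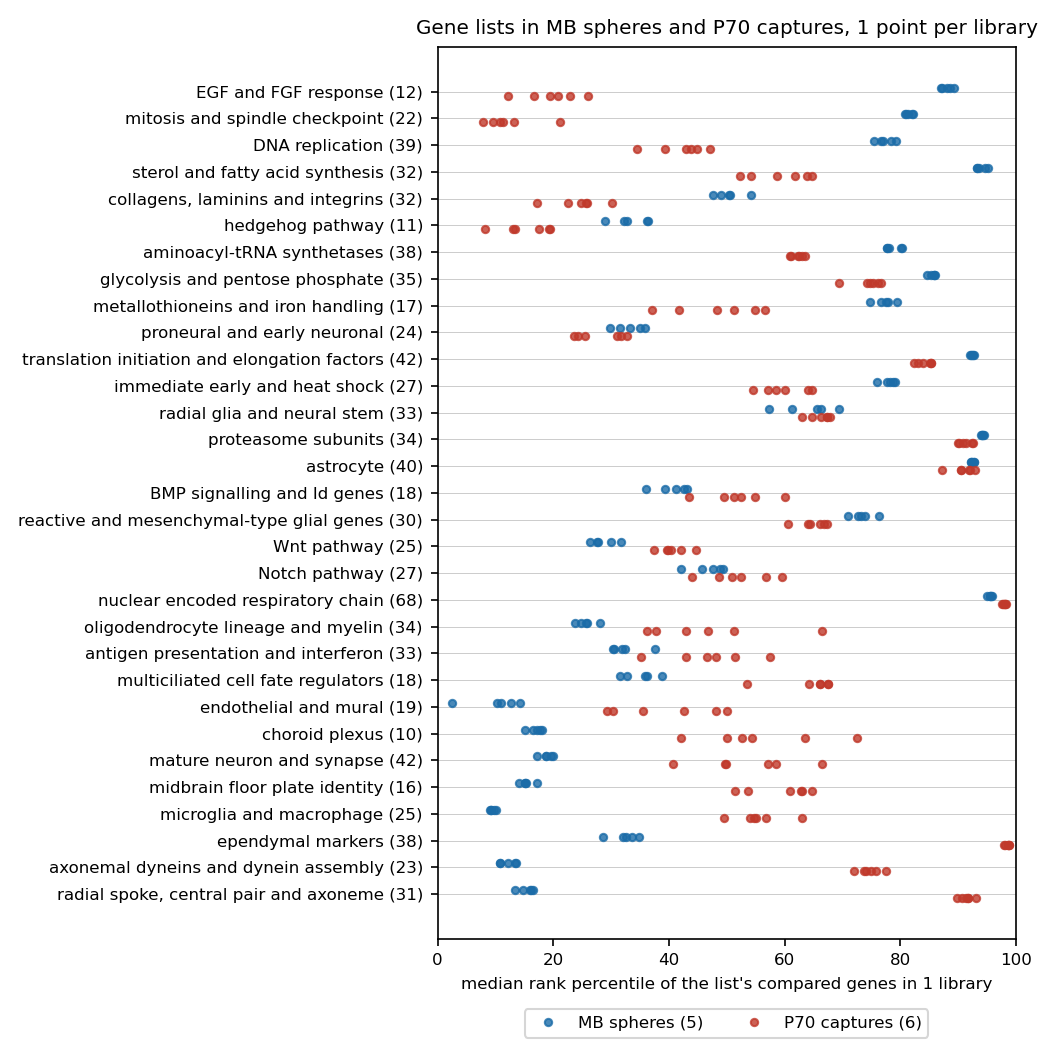
Median rank percentile (x axis) of the compared genes of each list in each library, with the number of genes in parentheses; blue points are the 5 MB spheres and red points the 6 P70 captures. The EGF and FGF list stands at 87.1 to 89.3 in MB and 12.2 to 26.1 at P70, and the radial spoke list at 13.3 to 16.4 and 89.8 to 93.0.

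Matrix and adhesion genes ranked higher in many cases. Of 32 compared collagens, laminins, integrins and matrix proteins, 16 ranked higher and 3 (Col4a2, Col23a1 and Itgb5) lower, beside 20.3% and 18.3% of all genes, with a median of 21.8 points. Length-scaled, 11 and 6 of 25 did, beside 15.8% and 15.2%. Itgav, integrin alpha V, had 147, 143, 178, 157 and 163 CPM in MB and 0.17, 3.04 and 4.13 units at P70, 69.8 points. Itgb8, a partner of it, had 66.1 to 106 CPM and 0.155, 1.65 and 6.60 units, 69.5 points. Fbln2, fibulin 2, had 675 to 888 CPM and Tnc, tenascin C, 260 to 311 CPM in MB, and neither had values at P70. Col1a1, Dcn and Lum, which mark fibroblasts, summed to 0.948 to 2.89 CPM in MB and were not listed at P70.

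The radial glia and stem cell list was called about as often as genes at large. Of 33 compared, 9 ranked higher, 8 lower and 16 were not called, beside 20.3% and 18.3% of all genes, with a median of 2.0 points. With length scaling 4 and 3 of 23 were called, beside 15.8% and 15.2%. Sox2, a factor of neural stem cells and of ependyma, had 17.9, 14.0, 21.5, 26.9 and 15.8 CPM in MB and 46.6, 94.5 and 141 units at P70, -50.7 points. Nes, nestin, ranked 37.2 points higher with 72.7 to 95.0 CPM and 1.19, 8.08 and 13.2 units, but 17.0 points after division by recovered length, where the call was lost.

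Vim, vimentin, had 681 to 776 CPM in MB and 553, 722 and 865 units at P70, -0.0901 points, and Fabp7, a lipid carrier abundant in radial glia, had 1681 to 1999 CPM and 169, 245 and 408 units, 3.33 points. Neither was called, and both stood near the top of both groups. Notch1 ranked 24.0 points higher by CPM, but stood at -4.82 points and was not called after division by recovered length.

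Of 40 astrocyte genes 29 were not called, 5 ranked higher and 6 lower, fewer than the 20.3% and 18.3% of all genes, with a median of 0.6 points. The median percentile of this list was 92.1 to 92.8 in MB and 87.3 to 92.9 at P70. A difference of 20 points is hard to reach there, so the low share of calls does not show that these genes were kept alike. Aldh1l1, a folate enzyme used to mark astrocytes, had 623, 618, 688, 605 and 717 CPM in MB and 4.86, 8.39 and 26.1 units at P70, 54.8 points. Gfap, the astrocyte intermediate filament, ranked lower, with 45.4 to 63.8 CPM and 54.9, 100.9 and 191 units, -25.3 points. Of 30 reactive and mesenchymal-type glial genes 8 ranked higher and 8 lower. Cd44, a hyaluronan receptor, had 65.4 to 106 CPM and 0, 2.25 and 3.08 units, 62.9 points, and S100a6 had 1.70 to 5.63 CPM and 98.5, 169 and 287 units, -75.6 points.

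Of 34 compared genes of the oligodendrocyte lineage 6 ranked higher (Olig1, Olig2, Sox8, Gpr17, Gjc3 and Lhfpl3) and 10 lower, beside 20.3% and 18.3% of all genes. With length scaling 4 and 3 of 20 did, beside 15.8% and 15.2%, so neither share stood far from the background there. Those lower by CPM ranks included the myelin genes Mbp, Mog, Mobp, Cldn11, Opalin and Mal. Olig2, a basic helix-loop-helix factor of oligodendrocyte progenitors, had 486, 414, 634, 429 and 481 CPM in MB and 0, 2.27 and 6.64 units at P70, 80.9 points. Mbp, myelin basic protein, had 59.1, 27.2, 18.3, 29.7 and 49.1 CPM and 121, 286 and 511 units, -45.6 points. Pdgfra, the receptor of oligodendrocyte progenitors, had 24.1 to 52.2 CPM and no values at P70. Sox10, a factor of the whole lineage, was not called, at 3.36 to 11.2 CPM and 1.05, 2.82 and 5.54 units.

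Most defining markers of neurons, dopamine neurons, microglia and vessels were listed at P70, and their summed levels were low in the spheres. Of 42 mature neuron and synapse genes 18 ranked lower and 4 higher, beside 18.3% and 20.3% of all genes, with a median of -22.0 points, and length-scaled 13 and 1 of 26. Some genes of this list had high levels in MB, such as Map2, a microtubule protein, at a mean of 468 CPM (not called), and Camk2b, a kinase subunit, at 273 CPM (48.3 points higher). Th, the dopamine-making enzyme, had 0.722, 0, 0.237, 0.316 and 0.131 CPM in MB and 8.47, 134 and 337 units at P70, -87.0 points. Th, Slc6a3 and Ddc summed to 20.99 to 433 units across the 6 captures and to 4.90 to 9.10 CPM in MB. The captures thus differed widely among themselves in dopamine neuron RNA. Snap25, Syt1, Rbfox3 and Tubb3 summed to 143 to 398 units at P70 and to 9.297 to 17.9 CPM in MB. Stmn2, a microtubule regulator of neurons, had 0.28 to 2.84 CPM and 67.8, 71.7 and 128 units, -76.7 points.

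Of 25 microglia and macrophage genes 15 ranked lower and 1 higher, beside 18.3% and 20.3% of all genes, with a median of -37.6 points. C1qa, of the first complement component, had 0, 0, 0.237, 0 and 0.262 CPM in MB and 33.3, 62.5 and 76.0 units at P70, -83.3 points. Aif1, Cx3cr1, Csf1r, C1qa and P2ry12 summed to 76.9 to 130 units at P70 and to 0.28 to 3.16 CPM in MB, and Cx3cr1 had 0 counts in every MB library. Of 19 endothelial and mural genes 7 ranked lower and 0 higher (median -19.0 points), and with annotated exon length 4 of 19 ranked lower, beside 15.6% of all genes. Cldn5, of the endothelial tight junction, had 0 to 0.786 CPM and 5.29, 19.7 and 47.5 units. Cldn5, Flt1 and Rgs5 summed to 12.7 to 72.8 units in the captures. The part that other cells in the captures have in the lower ranks of the spheres was not tested.

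Among patterning signals most genes were not called, and the counts stand beside 20.3% higher and 18.3% lower of all genes. Of 27 Notch genes 4 ranked higher and 5 lower, of 25 Wnt genes 5 and 5, of 18 BMP and Id genes 2 and 5, and of 11 hedgehog genes 4 and 1. With length scaling the Wnt counts were 1 and 2 of 15. Dll1 and Dll3, Notch ligands, ranked 43.5 and 53.9 points higher, with 46.1 to 57.5 and 48.5 to 50.7 CPM in MB, and Notch2, a receptor, ranked lower by -33.9 points. Ptch1, the hedgehog receptor and target, had 26.7 to 42.6 CPM and 0, 1.49 and 3.18 units, 43.4 points. Bmp6, a secreted BMP, had 0 to 0.712 CPM and 17.1, 27.4 and 30.2 units, -69.6 points. Of 24 proneural and early neuronal genes 8 ranked higher and 2 (Stmn2 and Tubb3) lower, and Sox11, of neuronal precursors, had 102 to 134 CPM and 2.50, 2.73 and 5.33 units, 66.0 points.

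The 10 genes with the most positive differences by the naming rule were Tubb6, Nptx1, Pbk, Egr1, Gnpda1, Mcm3, Apln, Myc, Shisa3 and Elovl6. Tubb6, a beta tubulin, had 283 to 328 CPM in MB and 0, 0 and 10.5 units at P70, 94.7 points, with the highest value in P70 replicate 3. Nptx1, neuronal pentraxin 1, had 341, 326, 376, 339 and 337 CPM and 0.353, 0.77 and 3.27 units, 92.3 points, beside 117 ± 7.78 CPM (SD, n = 5) in FB. Shisa3, an inhibitor of Wnt and FGF receptors, had 163 to 206 CPM and 0, 1.0 and 2.49 units, 83.6 points, beside 30.3 CPM in FB. Apln, the peptide apelin, had 118 to 153 CPM and 0, 0.737 and 2.67 units, 83.8 points. MB and FB are set side by side here without a test of single genes.

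**Figure D5:**
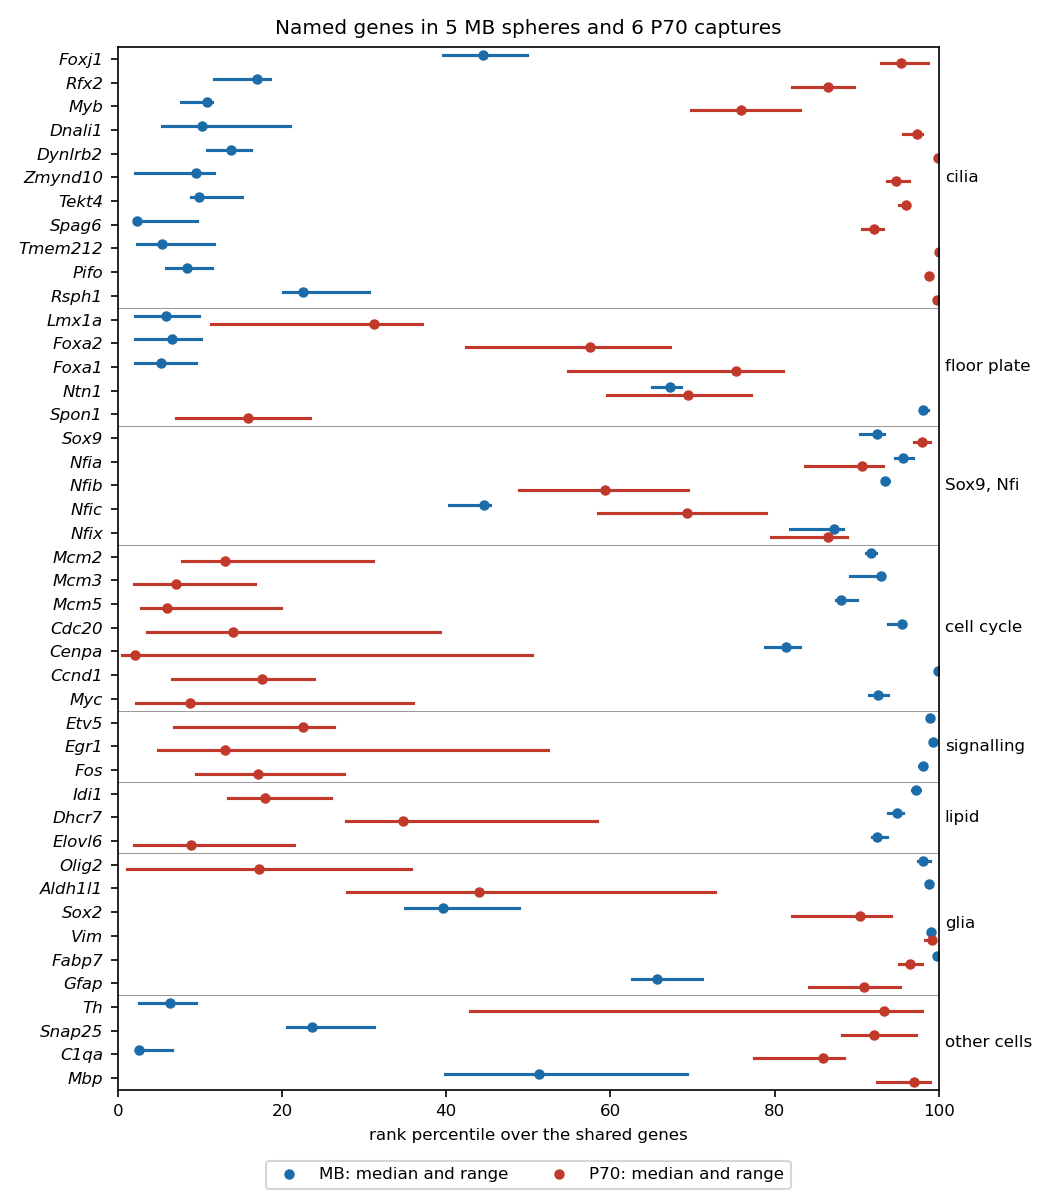
Rank percentile (x axis) of named genes, with the median as a point and the lowest to highest library as a line, in 5 MB spheres (blue) and 6 P70 captures (red). Tmem212 stands at 5.34 and 99.9, Ccnd1 at 99.8 and 17.5, and Vim and Nfix overlap; the widest P70 ranges drawn belong to Cenpa, Egr1 and Th.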

How the data were processed

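Polyadenylated RNA of 30 mouse libraries was sequenced after Smart-seq2 amplification and Tn5 tagmentation without molecular identifiers, per the labels' protocols. Reads are therefore not independent molecules, and reads of overlapping or antisense genes cannot be separated. The deposited sphere values are whole-number counts per gene (the read counter: not given in the sources used here). Per the submitters' processing notes, which give no roles, the tools were STAR 2.3, Salmon 1.6.0 and DESeq2 1.34.0 and, as builds, mm10 and GRCm39. The deposited captured values are normalized by the authors in another unit, not named in the sources used here. Their low values are whole multiples of a step set by gene and library, as in RPKM. Whole reads, to within 0.01 of a read, were recovered for 12092 of 14997 symbols, and an accepted gene length for 9863.

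The 22 sphere rows and 142 captured rows with a repeated symbol were left out, and 1637 symbols listed at P70 were not found once in both tables. All columns were matched by name, with 0 left out. Libraries were ranked with pandas 2.3.3 under Python 3.11.15, and the ranking and calling steps were tested on simulated data. Exact permutation tests were run only between libraries of one table. The 35 gene lists, the comparison and its members were chosen with earlier results of these data known. Named genes are Sox9 and the Nfi genes; Lmx1a and Foxj1; the marker genes; the 10 largest differences each way among genes called with CPM and length-scaled ranks whose higher median is at least the 75th percentile; up to 4 called genes per list; and up to 4 per list not listed at P70, by CPM. Other genes of a list, named without values, were chosen after their calls were seen. Some genes that the rule selects are not reported here. Gene positions and exon lengths are from the GENCODE annotation of GRCm38, and promoters from RefSeq on GRCm38.p6. Alternatives changed gene length, the ranked quantity, filters, the size of the call, pseudocounts and the libraries used.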

Additional observations from a re-analysis of the deposited data

Results flagged for a closer look

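In 29 of 235 groups of 4 to 6 libraries checked, 1 library stood far from the others by Dixon's criterion, which chance meets in about 1 group in 20. Many of the genes concerned are near 0, where 1 or a few reads decide. P70 replicate 3 was the outlying capture 6 times and P70 replicate 6 was 5 times, and MB replicates 3 and 4 were outlying 6 and 5 times.

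P70 replicate 3 was the highest for Tubb6 (10.5 units, others 0 to 0.311), Pbk (6.003, others 0), Cenpa (11.5, others 0 to 1.07), Nptx1 (3.27, others 0.353 to 0.925) and Egr1 (12.4, others 0.698 to 4.69). It was the lowest for Etv5 (0.803 units, others 2.95 to 4.16). P70 replicate 6 was the highest for Aldh1l1 (26.1 units, others 4.86 to 9.49), Stmn2 (128, others 67.8 to 80.4) and Dll3 (7.78, others 0.444 to 2.88). It was the lowest for Dll1 (0.613 units, others 3.02 to 4.28) and Lmx1a (0.901, others 4.93 to 7.12). The calls of these genes held without any 1 capture, but the compared genes were still those chosen with all 6 captures. Without replicate 3, Tubb6, Pbk, Cenpa and Nptx1 average below the listing limit of 1 unit and would not have been compared. Their calls were thus not shown to be independent of that capture.

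Among the MB spheres, replicate 3 was the lowest for Nfic (18.6 CPM, others 21.9 to 22.97), Mcm3 (149.6, others 196 to 212) and Fos (409, others 467 to 481). It was the highest for Corin (1.54 CPM, others 0 to 0.131), Bmp6 (0.712, others 0 to 0.158) and Tmem212 (1.31, others 0 to 0.144). Replicate 4 was the highest for Sox10 (11.2 CPM, others 3.36 to 4.04), Dnali1 (5.06, others 0.144 to 1.31), P2ry12 (2.53, others 0 to 0.712) and, both at 0.316 with the others at 0, Dmkn and Ccdc33. Replicate 5 was the highest for Efcab10 (0.393 CPM, others 0), Ppp1r32 (0.917, others 0 to 0.144) and Lmx1a (0.786, others 0 to 0.158). Replicate 2 was the highest for Spag6 (0.70 CPM, others 0) and the lowest for Eno2 (4.20, others 11.3 to 12.5), and replicate 1 was the highest for Flt1 (2.02, others 0 to 0.28).

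One E11 capture, replicate 2, had a mean correlation with the MB libraries of 0.592, while the others lay between 0.585 and 0.586. All E11 values lay above those of E18 and P70.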

How the results depend on the processing

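The counts of genes that ranked higher and lower depended on how length and the size of a call were treated. With length from recovered reads, over 8261 genes, they were 1304 and 1259, and with recovered reads ranked against counts 1522 and 1422. With medians at least 30 points apart 1454 ranked higher. On log2 length-scaled values they were 749 and 1023 at a pseudocount of 1, and 871 and 1378 at 0.1. Among these settings 1 gene turned over, with recovered reads against counts. Fewer genes were compared with recovered reads; otherwise the cause was not tested. Leaving out each library gave 2374 to 2450 higher and 2134 to 2208 lower.

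By list, the share of mitosis genes that ranked higher was 50% among genes of at least 5 units at P70, a filter that removes most of them. Over all genes of that filter 1926 of 8376 ranked higher. For aminoacyl-tRNA synthetases it was 60.7% (recovered reads), 23.7% (30 points) and 25.0% (log2, pseudocount 1). For collagens, laminins and integrins it was 28.6% (5 units) and 28.0% (log2, pseudocount 1). Over all genes 1522 of 8261 ranked higher with recovered reads, 1454 of 11654 at 30 points and 749 of 8261 on log2 at 1. For immediate early and heat shock genes it was 62.5% with recovered length, with recovered reads and on log2 at 0.1. Over all 8261 genes 1304, 1522 and 871 ranked higher in these settings. The share of endothelial and mural genes that ranked lower was 21.1% with exon length, 16.7% with recovered reads and 60% among genes of at least 1 CPM in MB. Over all genes 1817 of 11649, 1422 of 8261 and 2033 of 10460 ranked lower in these settings. The axonemal, ependymal, floor plate, neuron, microglia, DNA replication, sterol and EGF and FGF lists stayed within 1.5 times their share in all alternatives run.

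With the replicate block, which pairs MB and FB of equal number, the difference in correlation with P70 was 0.0165 and the sign-flip permutation p 0.0625, the smallest 5 pairs can give. The labels do not say that equal numbers share an animal or culture. The 3 differences between ages kept their direction and adjusted calls in every alternative run.

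Captures held fewer reads than spheres, so at P70 single reads decide genes near 1 unit, and genes below that mean could not be compared.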
